A study of Rattus norvegicus with 12 samples.

Results

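CC chemokines are small secreted proteins that draw leukocytes along a gradient, and their receptors are the G protein-coupled receptors that read them. The genes described are 7 ligands, Ccl2, Ccl3, Ccl4, Ccl5, Ccl7, Ccl20 and Ccl21, and 2 receptors, Ccr1 and Ccr2. They were found by matching the RefSeq accession of each array probe, without its version, to the rat gene symbols. All 9 of 9 genes had a probe, 1 each, of 13903 genes with a symbol and a probe in all, and all 9 were bright enough to be tested. The data are 12 one-colour arrays of vein RNA from male rats, with 3 arrays a day. Grafts, in which the external jugular vein bypassed the carotid artery, were taken 7, 14 and 28 days after surgery, and day 0 stands for vein of rats that had no operation. The labels give no strain and no age, and they do not say whether each array held 1 animal.

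In a vein exposed to arterial pressure and flow, cells of the wall and incoming leukocytes release inflammatory CC chemokines. Ccl2 and Ccl7 act on Ccr2 of monocytes, and Ccl3 and Ccl5 act on Ccr1 of monocytes and macrophages, among other receptors. Ccl20 acts on Ccr6, and Ccl21 is a homeostatic ligand of Ccr7 made by lymphatic endothelium and by stromal cells of lymphoid tissue.

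Levels are the log2 processed intensity minus the 75th percentile of the same array, so a level of 0 equals that percentile. Changes are differences of mean levels between days, ± SE, from limma, with p-values adjusted over 21063 tested probes by Benjamini-Hochberg and an adjusted p under 0.05 taken as passing the test. Of the gene spots on an array, 71.9% to 82.6% were well above background. Spots that the scanner software called non-uniform numbered 460 on day 0 replicate 3 and 393 on day 7 replicate 3, and 2 to 11 on each other array, and calls of the 9 genes that change without these 2 arrays are given below. The smooth muscle markers Cnn1, Tagln and Des, which mark the vessel wall, had a mean level of 8.01 ± 0.31 at day 0, 4.84 ± 0.75 at day 7, 4.61 ± 0.31 at day 14 and 5.63 ± 0.29 at day 28 (SD, n = 3 each), and all 3 genes were lower on each graft day. Arrays were read in 4 scans. The third scan held 2 day 0 arrays and 1 of day 28, and no scan held day 0 together with day 7 or day 14.

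The inflammatory ligands and both receptors were higher in grafts than in unoperated vein, while Ccl21 was lower at days 7 and 14 and back near its unoperated level at day 28. At day 7, 8 of the 9 genes had risen and Ccl21 had fallen, where 33.1% of all tested probes passed the test (17.7% higher and 15.4% lower). At day 14 the counts were again 8 higher and 1 lower, against 37.5% of probes (20.1% higher and 17.4% lower). At day 28, 7 were higher and 2 did not pass, against 33.9% of probes (17.4% higher and 16.5% lower). The median change of the 9 genes was 3.53 at day 7, 3.41 at day 14 and 2.38 at day 28, and the median over all tested probes was -0.03, 0.02 and 0.01 on the same days. Graft and day 0 arrays did not overlap for 9, 8 and 6 of the 9 genes on days 7, 14 and 28, where 39.4%, 50.9% and 48.2% of all probes did not overlap. The 3 changes against day 0 share the day 0 arrays and are not independent of one another.

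**Figure D1:**
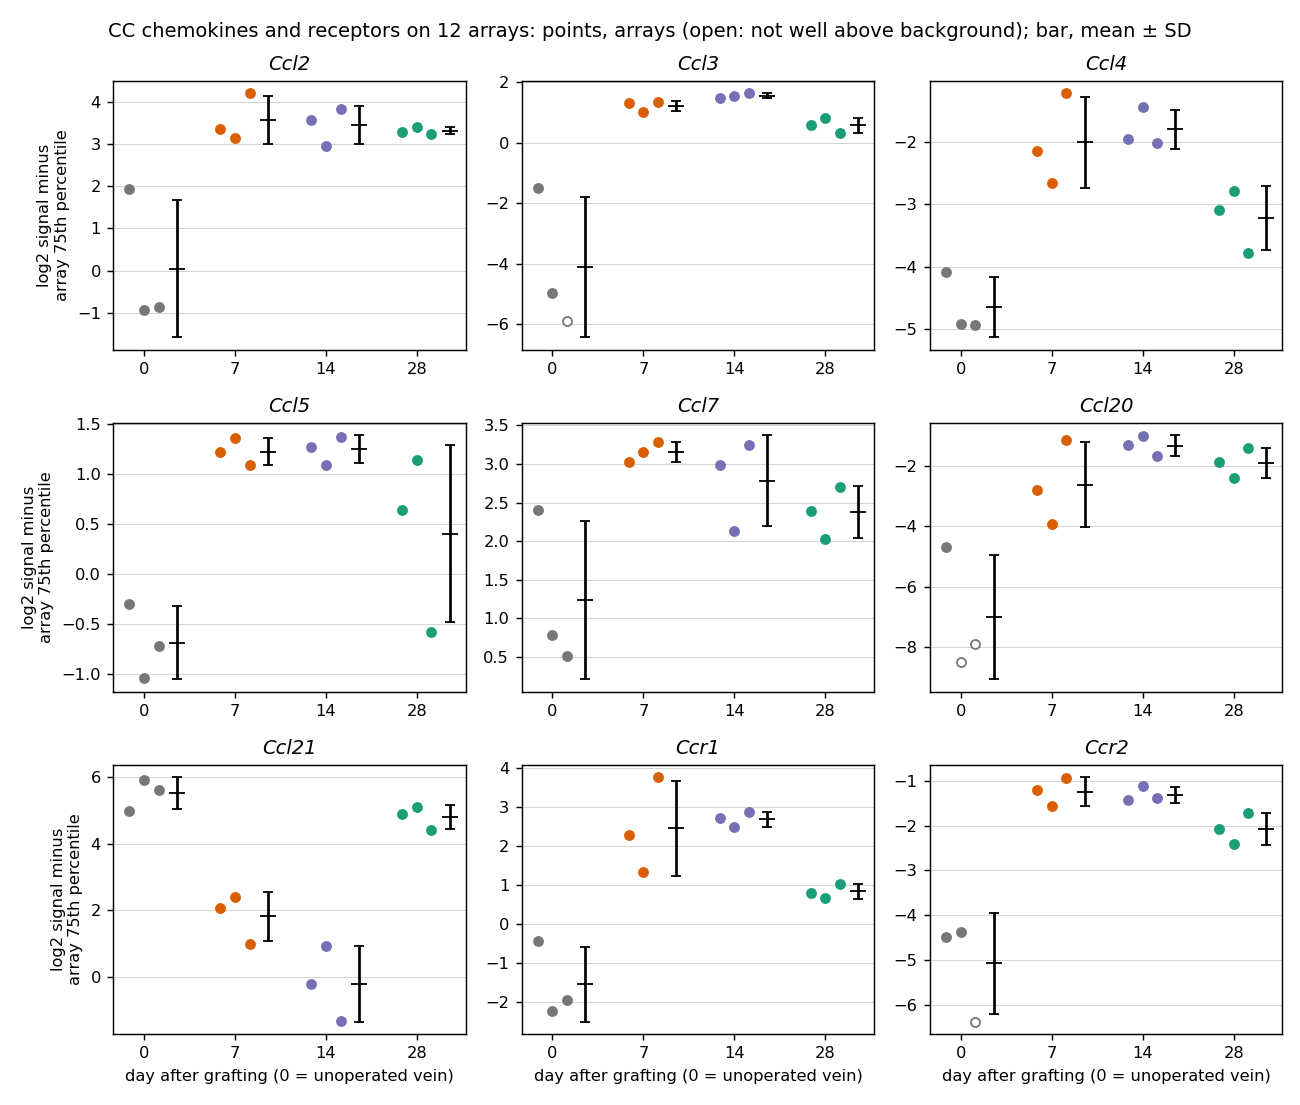
Levels of the 9 genes on each array, log2 signal minus the array's 75th percentile, by day after grafting (0 is unoperated vein); points are arrays, open points were not well above background, and bars are mean ± SD of 3 arrays. Ccl21 lies between -1.32 and 0.93 at day 14 and between 4.98 and 5.91 at day 0, while Ccl2 lies at or above 2.95 on every graft array.

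The regions just before the transcription starts of Ccl7, Ccl20 and Ccl21 are printed because 2 of these genes rose and 1 fell at day 7. Each holds the 250 bases before the start, on the gene's strand, from RefSeq on the rat build GRCr8, and RefSeq windows matched 5 of the 9 genes. Capitals mark matches on either strand to the NF-kB consensus, the binding sequence of a factor that drives inflammatory genes, or to the AP-1 motif TGANTCA.
Ccl7, chr10:67513845-67514094 (+): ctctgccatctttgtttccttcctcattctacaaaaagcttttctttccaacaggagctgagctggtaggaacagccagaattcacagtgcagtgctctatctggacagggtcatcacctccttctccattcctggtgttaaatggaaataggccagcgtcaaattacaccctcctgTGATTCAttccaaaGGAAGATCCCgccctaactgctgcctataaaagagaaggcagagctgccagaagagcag
Ccl20, chr9:91836909-91837158 (+): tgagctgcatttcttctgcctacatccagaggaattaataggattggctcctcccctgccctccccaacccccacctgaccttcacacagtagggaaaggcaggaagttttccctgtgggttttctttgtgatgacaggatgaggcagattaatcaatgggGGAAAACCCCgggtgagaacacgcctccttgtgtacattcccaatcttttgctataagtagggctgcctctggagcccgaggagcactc
Ccl21, chr5:61777516-61777765 (-): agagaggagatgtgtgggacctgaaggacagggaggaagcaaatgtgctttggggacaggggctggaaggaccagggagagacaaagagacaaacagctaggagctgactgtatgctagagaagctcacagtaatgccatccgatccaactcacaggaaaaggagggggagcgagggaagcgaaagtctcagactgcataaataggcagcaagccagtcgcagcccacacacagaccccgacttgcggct

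Ccl7 held an NF-kB match that ran from 59 to 50 bases before the start and an AP-1 match that ran from 73 to 67 bases before it. Ccl20 held an NF-kB match from 89 to 80 bases before its start. The windows of Ccl21, Ccr1 and Ccr2 held neither motif. Of 33469 rat windows of the same length, 6.325% held the NF-kB match and 6.34% the AP-1 match. A match is a run of letters and shows no binding.

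Ccl2, the main attractant of monocytes, was 11.5-fold higher at day 7. Its level was 1.93, -0.93 and -0.86 at day 0, then 3.35, 3.15 and 4.21 at day 7, 3.57, 2.95 and 3.84 at day 14, and 3.30, 3.41 and 3.24 at day 28. Every graft array lay above every day 0 array, and day 0 replicate 1 lay well above the other day 0 arrays. The change was 3.53 ± 0.65 at day 7 (adjusted p = 0.0026), 3.41 ± 0.65 at day 14 (adjusted p = 0.00257) and 3.27 ± 0.65 at day 28 (adjusted p = 0.00414). The graft days did not differ beyond the spread of arrays, with differences from -0.25 to -0.12 and adjusted p from 0.877 to 0.952. Without day 0 replicate 1 the changes against day 0 were 4.47, 4.35 and 4.22.

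Ccl7, a monocyte attractant encoded next to Ccl2, changed less and no longer passed the test at day 28. It stood at 2.41, 0.79 and 0.51 at day 0, at 3.02, 3.16 and 3.29 at day 7, at 2.99, 2.13 and 3.24 at day 14, and at 2.40, 2.03 and 2.70 at day 28. The day 7 arrays lay above all day 0 arrays, while 1 array of day 14 and 2 of day 28 lay below day 0 replicate 1. Ccl7 rose by 1.92 ± 0.46 at day 7 (adjusted p = 0.00976) and by 1.55 ± 0.46 at day 14 (adjusted p = 0.0235). Its difference of 1.14 ± 0.46 at day 28 did not pass (adjusted p = 0.081). Without the 2 arrays marked by non-uniform spots its changes were 1.49 at day 7 (adjusted p = 0.0542) and 1.19 at day 14 (adjusted p = 0.0758), and the day 14 call was also lost without day 0 replicate 2, day 0 replicate 3, day 14 replicate 1 or day 14 replicate 3 (adjusted p from 0.0732 to 0.0895). With only the arrays of the 2 days compared, Ccl7 missed the threshold at day 7 (adjusted p = 0.0589) and day 14 (adjusted p = 0.0946), and with normexp at day 14 (adjusted p = 0.0506). Without day 0 replicate 1 the changes were 2.51, 2.14 and 1.73, and the last of these passed (adjusted p = 0.00313).

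Ccl3 and Ccl20 had the largest rises of the 9 genes at each graft day in the values as processed here. That order did not hold for Ccl20 with normexp background correction. Ccl3 is a macrophage inflammatory protein that attracts monocytes and T cells. Its levels were -1.49, -4.98 and -5.89 at day 0, 1.31, 1.03 and 1.34 at day 7, 1.49, 1.54 and 1.64 at day 14, and 0.59, 0.84 and 0.32 at day 28. Day 0 replicate 3 was not well above background, and the graft arrays lay close together and far above a day 0 group that spread over more than 4 log2 units. The change was 5.34 ± 0.85 at day 7 (adjusted p = 0.00112), 5.68 ± 0.85 at day 14 (adjusted p = 0.000618) and 4.70 ± 0.85 at day 28 (adjusted p = 0.00253). With normexp the changes were 3.63, 4.11 and 3.15. Leaving out day 0 replicate 1 gave 6.66, 6.99 and 6.01, and leaving out day 0 replicate 3 gave 4.46, 4.79 and 3.81.

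Ccl4, the close relative of Ccl3, followed a like course at a smaller scale. It stood at -4.08, -4.93 and -4.93 at day 0, at -2.15, -2.66 and -1.22 at day 7, at -1.95, -1.44 and -2.02 at day 14, and at -3.09, -2.78 and -3.78 at day 28. No graft array overlapped day 0, and the day 28 arrays lay between day 0 and the earlier grafts. Ccl4 rose by 2.64 ± 0.40 at day 7 (adjusted p = 0.000883), 2.85 ± 0.40 at day 14 (adjusted p = 0.000434) and 1.43 ± 0.40 at day 28 (adjusted p = 0.0209). Its difference of -1.42 ± 0.40 between day 28 and day 14 did not pass (adjusted p = 0.0744), although it did without the 2 arrays marked by non-uniform spots (adjusted p = 0.0184) and with only the arrays of those 2 days (adjusted p = 0.0175). With normexp background correction the changes against day 0 were 1.91, 1.48 and 0.44, the last of which did not pass (adjusted p = 0.501), and without day 0 replicate 2, day 0 replicate 3, day 28 replicate 1 or day 28 replicate 2 its adjusted p was 0.0633, 0.0562, 0.0692 or 0.0791.

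Ccl5, which T cells and platelets store and release, had levels of -0.30, -1.03 and -0.72 at day 0, 1.22, 1.37 and 1.09 at day 7, 1.28, 1.1 and 1.37 at day 14, and 0.65, 1.15 and -0.58 at day 28. The arrays of days 7 and 14 lay together above day 0, while day 28 replicate 3 lay within the day 0 range. Ccl5 rose by 1.91 ± 0.38 at day 7 (adjusted p = 0.00348) and 1.94 ± 0.38 at day 14 (adjusted p = 0.00272). The change of 1.09 ± 0.38 at day 28 only just passed (adjusted p = 0.0463). It did not pass under 8 of 9 other ways of processing, nor without day 0 replicate 2 or 3 or day 28 replicate 1 or 2 (adjusted p from 0.0856 to 0.164). In the scan that held arrays of both days, day 28 replicate 3 exceeded the mean of the 2 day 0 arrays by 0.09.

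Ccl20, the ligand of Ccr6 that attracts helper T cells, dendritic cells and B cells, was well above background on every graft array and on 1 of 3 day 0 arrays. Its levels were -4.67, -8.47 and -7.89 at day 0, -2.81, -3.91 and -1.15 at day 7, -1.31, -1.0 and -1.68 at day 14, and -1.86, -2.41 and -1.43 at day 28. All graft arrays lay above all day 0 arrays, and the day 7 arrays were the most spread of the graft days. The change was 4.39 ± 0.92 at day 7 (adjusted p = 0.00503), 5.68 ± 0.92 at day 14 (adjusted p = 0.000993) and 5.11 ± 0.92 at day 28 (adjusted p = 0.0025). With normexp background correction the changes were 2.17, 2.27 and 1.78, without day 0 replicate 1 they were 5.56, 6.85 and 6.28, and without day 0 replicate 2 they were 3.66, 4.95 and 4.38. The day 7 change was 5.03 without day 7 replicate 2 and 3.65 without day 7 replicate 3. Ccl20 at day 7 also missed the threshold when only the arrays of days 7 and 0 were fitted (adjusted p = 0.055).

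Ccl21 took the opposite course. Its level was 4.98, 5.91 and 5.61 at day 0, 2.09, 2.40 and 1.00 at day 7, -0.21, 0.93 and -1.32 at day 14, and 4.89, 5.10 and 4.39 at day 28. The arrays of days 7 and 14 lay below all others and did not overlap each other, and the day 28 arrays reached into the day 0 range. Ccl21 fell by 3.67 ± 0.54 at day 7, a 12.8-fold lower level (adjusted p = 0.000741), and fell by 5.70 ± 0.54 at day 14, a 52-fold lower level (adjusted p = 4.5e-05). At day 28 the difference from day 0 was -0.71 ± 0.54 and did not pass (adjusted p = 0.338).

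Between graft days, Ccl21 was the 1 gene of the 9 that passed a test. For day 14 against day 7, 0 of the 9 passed in limma, where 3.26% of all probes did (1.38% higher and 1.88% lower), and 1 of the 9, Ccl21, had an unadjusted p under 0.05. Ccl21 differed by -2.03 ± 0.54 in that comparison (adjusted p = 0.083), and it passed without the 2 arrays marked by non-uniform spots (-2.44, adjusted p = 0.0317), without day 7 replicate 3 (-2.44, adjusted p = 0.0347) or day 14 replicate 2 (-2.59, adjusted p = 0.0327). For day 28 against day 14, Ccl21 was higher by 5.0 ± 0.54, or 31.9-fold (adjusted p = 0.00215), where 4.48% of probes passed (2.4% higher and 2.08% lower). For day 28 against day 7 it was higher by 2.97 ± 0.54, or 7.82-fold (adjusted p = 0.0279), where 1.78% of probes passed (0.75% higher and 1.03% lower). This last call was lost without day 7 replicate 1 or 3 or any 1 of the day 28 arrays (adjusted p from 0.0597 to 0.133) and with scan as a random block (adjusted p = 0.0776). Arrays did not overlap for 2 of the 9 genes between days 14 and 7 (33.1% of all probes), for 5 between days 28 and 14 (50.5%) and for 6 between days 28 and 7 (35.7%). From high to low, Ccl21 levels ran day 0, day 28, day 7 and day 14, and neither the step between days 28 and 0 nor that between days 14 and 7 passed the test.

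**Figure D2:**
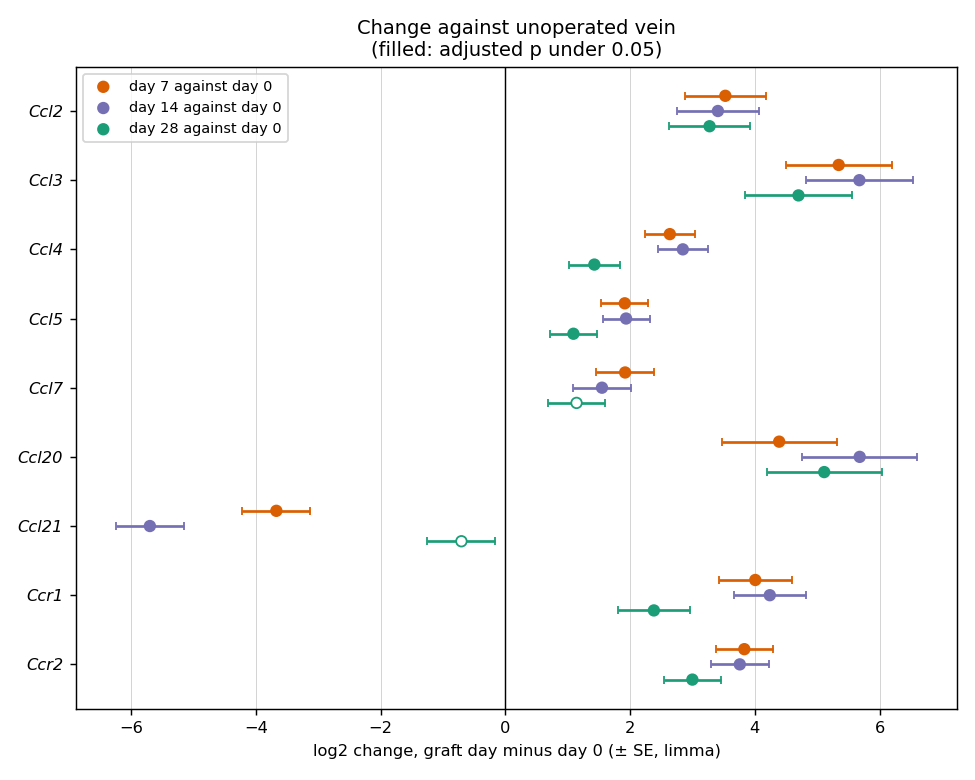
Change of each of the 9 genes against day 0 on a log2 scale, graft day minus day 0, with its SE from limma; filled points passed the adjusted threshold and open points did not. Ccl21 alone lies left of 0, at -3.67, -5.70 and -0.71, and its open day 28 point lies nearest to 0.

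Ccr1, a receptor of Ccl3, Ccl5 and Ccl7 on monocytes and neutrophils, had levels of -0.45, -2.23 and -1.96 at day 0, 2.28, 1.34 and 3.76 at day 7, 2.73, 2.48 and 2.86 at day 14, and 0.81, 0.67 and 1.03 at day 28. The 3 day 28 arrays lay between the day 0 arrays and all arrays of days 7 and 14. Ccr1 rose by 4.01 ± 0.58 at day 7 (adjusted p = 0.000654), 4.24 ± 0.58 at day 14 (adjusted p = 0.000353) and 2.38 ± 0.58 at day 28 (adjusted p = 0.0108). Its difference of -1.86 ± 0.58 between days 28 and 14 did not pass (adjusted p = 0.0961), although it did when only the arrays of those 2 days were fitted (adjusted p = 0.00156) and without the 2 arrays marked by non-uniform spots (adjusted p = 0.0184). Without day 7 replicate 3 the day 7 change was 3.36.

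Ccr2, through which monocytes leave the bone marrow and enter tissue in response to Ccl2 and Ccl7, had levels of -4.47, -4.37 and -6.37 at day 0, -1.21, -1.57 and -0.94 at day 7, -1.43, -1.11 and -1.39 at day 14, and -2.08, -2.42 and -1.72 at day 28. Day 0 replicate 3 was not well above background, and all graft arrays lay above all day 0 arrays. The change was 3.83 ± 0.46 at day 7 (adjusted p = 0.000224), 3.76 ± 0.46 at day 14 (adjusted p = 0.000189) and 3.00 ± 0.46 at day 28 (adjusted p = 0.00114). These became 3.18, 3.11 and 2.35 without day 0 replicate 3, and 2.39, 1.98 and 1.34 with normexp, all of which passed. The difference of -0.76 between days 28 and 14 passed without the 2 arrays marked by non-uniform spots (adjusted p = 0.0286) and with only the arrays of those 2 days (adjusted p = 0.0367), though not otherwise.

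Scan and day were partly the same, so the changes were also read with scan in the model. Under a fixed block, grafts are linked to day 0 only through day 28 replicate 3 and the 2 day 0 arrays of its scan. The kept signs and the calls below are thus not separate checks for each day. With scan as a fixed block all 27 changes of the 9 genes against day 0 kept their sign and 4 passed the test. Those 4 were Ccr2 at day 7 (3.90, adjusted p = 0.0468), day 14 (3.70, adjusted p = 0.01) and day 28 (2.70, adjusted p = 0.00879), and Ccl21 at day 14 (-6.25, adjusted p = 0.0352). Of all probes, 0.261%, 4.91% and 6.47% passed with that block on days 7, 14 and 28. Ccl5 shrank most in proportion, to 0.38, 0.43 and 0.09. Within the scan that held day 28 replicate 3 and 2 day 0 arrays, the difference was 5.14 for Ccl20, 3.55 for Ccl3, 2.74 for Ccl2, 2.70 for Ccr2, 2.37 for Ccr1 and -1.06 for Ccl21. Within the scan that held 2 arrays each of days 28 and 14, Ccl21 was higher by 5.19 at day 28.

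Other genes of the CC family were read from a list of 24, of which 19 had a probe and 15 were bright enough to test. Ccl1, Ccl12, Ccr8, Ackr1 and Ackr4 had no matched probe, and Ccl26, Ccr3, Ccr9 and Ccr10 were too dim. Of the 15, 7 rose and 4 fell at day 7 and again at day 14. At day 28, 3 rose and 3 fell. The median changes were 0.81, 0.65 and 0.24. Of all tested probes, 17.7%, 20.1% and 17.4% were higher on days 7, 14 and 28. Lower were 15.4%, 17.4% and 16.5%. The day 28 counts of the 15 lay near these shares. Ccl9, a macrophage chemokine, rose by 5.26 ± 0.39, 5.33 ± 0.39 and 4.77 ± 0.39 on days 7, 14 and 28 (adjusted p from 1.04e-05 to 3.71e-05). Ccr6, the receptor of Ccl20, rose by 2.40 ± 0.60, 2.21 ± 0.60 and 1.98 ± 0.60 (adjusted p = 0.0121, 0.016 and 0.0288). The Ccr6 changes were 3.21, 3.02 and 2.79 without day 0 replicate 1 and 1.77, 1.58 and 1.35 without day 0 replicate 3. With normexp its changes at days 14 and 28 were 1.07 and 0.85 and did not pass, nor did day 14 without its replicate 2 or day 28 without day 0 replicate 2, day 0 replicate 3 or any 1 of its own arrays (adjusted p from 0.0602 to 0.0802). With only the arrays compared, Ccr6 did not pass on any day (adjusted p = 0.0793, 0.0776 and 0.0937), nor at day 28 without the 2 arrays marked by non-uniform spots (1.35).

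Ccl11 and Ccl24 are eosinophil attractants. Ccl11 (eotaxin) was higher by 3.64 ± 0.80 at day 7 (adjusted p = 0.00606) and differed by 0.75 and 0.67 at days 14 and 28 without passing. Its day 7 change was 4.39 without day 0 replicate 1, 4.62 without day 7 replicate 3 and 2.96 with normexp, and it missed the threshold with only the arrays compared (adjusted p = 0.0626). Ccl24 rose by 3.16 ± 0.59 and 2.79 ± 0.59 at days 7 and 14 and differed by 0.59 at day 28 (adjusted p = 0.468), with 3.89 at day 7 without day 7 replicate 2. Ccl17 and Ccl22 are ligands of Ccr4. Ccl17 rose by 3.90, 2.83 and 2.42, and Ccl22 rose by 2.72 and 3.48 at days 7 and 14. The day 28 call of Ccl17 was lost with normexp (0.80), without the 2 arrays marked by non-uniform spots (1.60), with only the arrays compared (adjusted p = 0.108) and without any 1 of its own arrays, day 0 replicate 2 or day 0 replicate 3 (adjusted p from 0.0597 to 0.0831). The day 14 call was lost with normexp (1.15, adjusted p = 0.0531) with only the arrays compared (adjusted p = 0.0723) and without day 14 replicate 3 (adjusted p = 0.0515), and without day 0 replicate 1 the changes of Ccl17 were 4.96, 3.88 and 3.47. Without day 0 replicate 3, on which neither was well above background, Ccl17 changed by 3.09, 2.01 and 1.60 and Ccl22 by 1.97 and 2.73, and Ccl22 did not pass at day 14 with normexp (1.20). The day 7 change of Ccl22 was 2.14 without day 7 replicate 3, and it missed the threshold with only the arrays compared (adjusted p = 0.0758). With scan as a fixed block, none of Ccr6, Ccl11, Ccl24, Ccl17 and Ccl22 passed on any day. Ccr4 itself fell by 2.22 ± 0.44, 1.89 ± 0.44 and 2.62 ± 0.44 (adjusted p from 0.00173 to 0.00716), from a probe well above background on 5 of 9 graft arrays. With normexp the Ccr4 values were 0.23, -0.68 and -1.0, none of which passed.

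Ccl19, the other ligand of Ccr7, fell together with Ccl21 and did not return. Its level lay between -1.15 and 0.08 on all graft arrays, against 4.10, 3.78 and 2.92 at day 0. Ccl19 fell by 3.97 ± 0.34 at day 7, by 3.87 ± 0.34 at day 14 and fell by 4.07 ± 0.34 at day 28 (adjusted p from 3.04e-05 to 4.13e-05). At day 28 its levels were -0.34, 0.08 and -1.15, far below day 0, while those of Ccl21 were back near day 0. Ccr7 levels lay between -4.03 and -2.55 on all 12 arrays and did not pass at any day (changes of 0.50, 0.03 and 0.24, adjusted p = 0.222, 0.942 and 0.565). Ccl27, known as a skin chemokine, fell by 1.34 ± 0.19, 1.76 ± 0.19 and 1.55 ± 0.19 (adjusted p from 8.09e-05 to 0.000518). Ackr2 is a decoy receptor that takes up inflammatory CC chemokines and is known from lymphatic endothelium. It fell by 3.38 ± 0.60 and 3.06 ± 0.60 at days 7 and 14 and differed by -0.42 at day 28. With normexp, though, its values at days 7 and 14 were -0.12 and -1.08 and did not pass. Day 7 replicate 3 was not well above background for Ackr2, and without it the day 7 value was -2.59. Ccl28, a mucosal chemokine, rose by 0.65 ± 0.22 at day 14 (adjusted p = 0.0396), a call lost with normexp (0.09), without the 2 arrays marked by non-uniform spots (adjusted p = 0.087), with only the arrays compared (adjusted p = 0.0713) and without day 0 replicate 3 or any 1 of the day 14 arrays (adjusted p from 0.0799 to 0.107), and Ccl25 and Ccrl2 did not pass at any day.

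**Figure D3:**
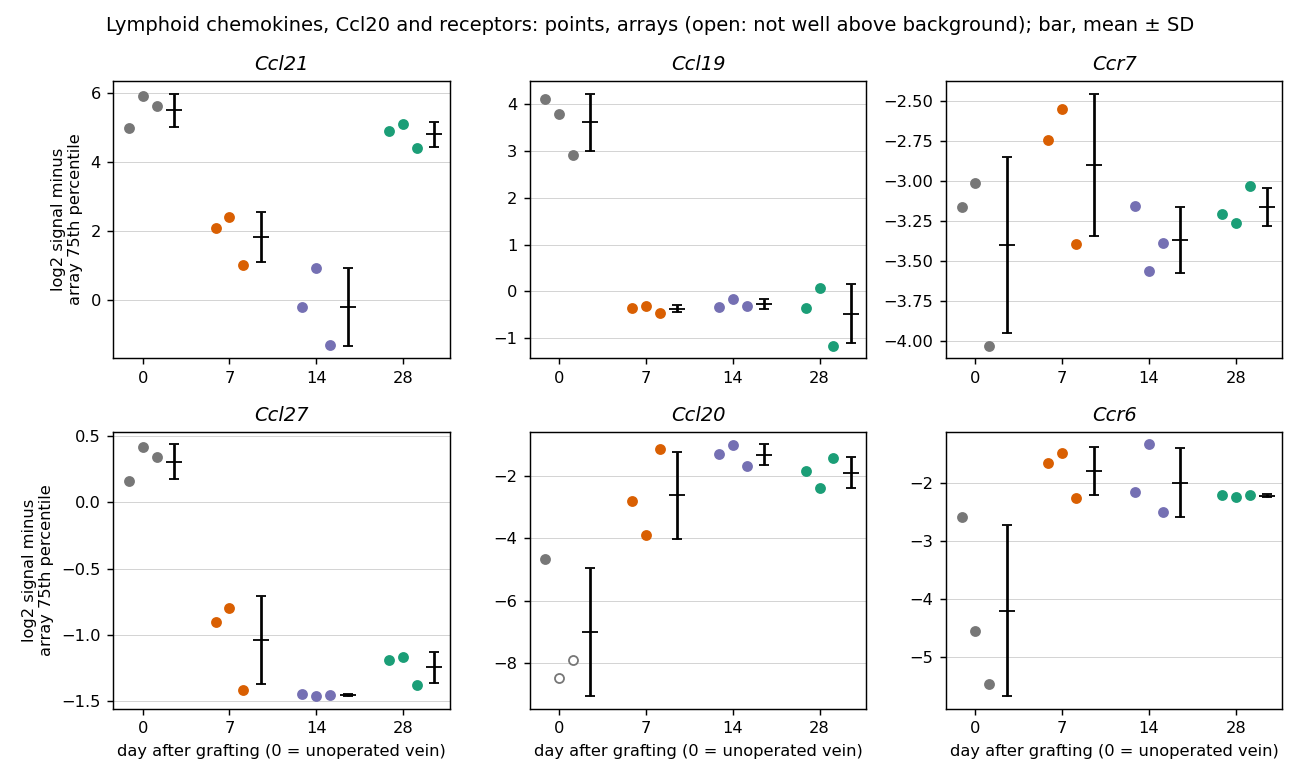
Levels of Ccl21, Ccl19 and their receptor Ccr7 (top) and of Ccl27, Ccl20 and its receptor Ccr6 (bottom), log2 signal minus the array's 75th percentile, by day after grafting; points are arrays (open: not well above background), bars mean ± SD of 3 arrays. At day 28 the Ccl21 arrays lie between 4.39 and 5.10 and the Ccl19 arrays between -1.15 and 0.08.

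CC genes lie in clusters, and the changes were also read in gene order, taken from RefSeq. Ccl5, Ccl9, Ccl6, Ccl3 and Ccl4 follow one another with 0 protein-coding genes between them, and all 5 rose at days 7 and 14. Ccl6, a macrophage chemokine known from rodents, rose by 2.78 ± 0.53 and 3.32 ± 0.53 at those days. It differed by 0.73 at day 28 without passing, and its day 7 change was 3.37 without day 7 replicate 2. Ccl2, Ccl7 and Ccl11 adjoin one another as well, and all 3 rose at day 7. Ccl11 did not pass at days 14 and 28, nor Ccl7 at day 28, and Ccl12 and Ccl1 of that group had no matched probe. Ccl27, Ccl19 and Ccl21 lie together with 1 other gene among them, and all 3 fell at days 7 and 14, while Ccl21 did not pass at day 28. Ccr1 and Ccr2 lie in 1 group, and both rose on each day, while Ccr9 and Ccr3 of that group were too dim to test. Of all tested probes, 17.7%, 20.1% and 17.4% were higher on days 7, 14 and 28, and 15.4%, 17.4% and 16.5% lower.

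**Figure D4:**
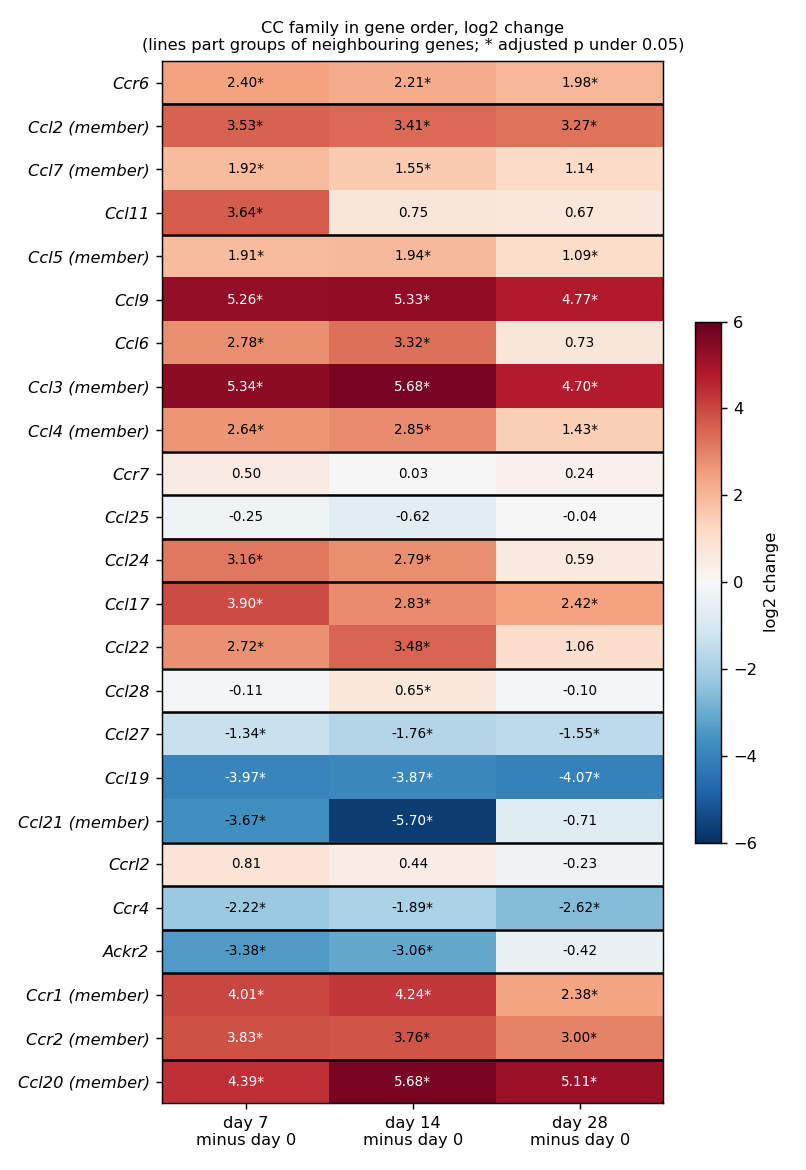
Change of every tested CC family gene against day 0 (log2, graft day minus day 0), in gene order from top to bottom; horizontal lines part groups of neighbouring genes, member marks the 9 genes described, and an asterisk marks an adjusted p under 0.05. The Ccl5 to Ccl4 group is red in all cells, and the Ccl27, Ccl19 and Ccl21 group is blue in all cells, with Ccl21 paler at day 28.

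Chemokine receptors signal through Gi proteins, phospholipase C beta, Rac and Src-family kinases. A list of 20 genes of this signalling held 15 that were tested. It also took in genes that damp or end the signal, namely Arrb1, Arrb2, Grk2, Grk6 and Rgs1. Of the 15 tested, 12, 11 and 9 rose on days 7, 14 and 28 and 0 fell, with medians of 1.15, 1.33 and 0.96. The Gi alpha genes Gnai2 (0.21, -0.29 and 0.16) and Gnai3 (-0.15, -0.11 and -0.06) did not pass on any day. The G protein beta gene Gnb1 rose on each (0.94, 1.08 and 1.15). Of all tested probes, 17.7%, 20.1% and 17.4% were higher on those days and 15.4%, 17.4% and 16.5% lower. Rgs1, which ends Gi signalling in leukocytes, rose by 5.53 ± 0.95, 5.76 ± 0.95 and 5.25 ± 0.95 (adjusted p from 0.00107 to 0.00251). Vav1, an exchange factor for Rac in blood cells, rose by 4.35, 4.61 and 3.61, and Rac2, the Rac GTPase of blood cells, by 4.11, 3.88 and 2.95 (adjusted p from 0.000183 to 0.00389). An inducer list of 11 held cytokines and NF-kB pathway genes, among them the NF-kB inhibitors Nfkbia and Tnfaip3. Of its 7 tested genes, 3 rose at days 7 and 14 and 1 at day 28. The day 28 count, 1 of 7, lay near the 17.4% of all tested probes that were higher. Tnf, the cytokine that activates NF-kB, rose by 4.79 ± 0.77, 4.10 ± 0.77 and 3.45 ± 0.77 (adjusted p from 0.00115 to 0.00706). Il1b rose by 3.14 ± 0.85 and 3.28 ± 0.85 at days 7 and 14, and Nfkb2, an NF-kB subunit, by 1.27 ± 0.22 and 0.77 ± 0.22. Without day 0 replicate 1 the changes were 6.74 to 7.26 for Rgs1, 4.36 to 5.36 for Vav1, 3.78 to 4.94 for Rac2 and 4.54 to 5.87 for Tnf. Without day 0 replicate 3 they were 4.36 to 4.88 for Rgs1 and 2.64 to 3.97 for Tnf, and without day 0 replicate 2 they were 4.63 to 5.14 for Rgs1. Il1b gave 4.01 and 4.15 at days 7 and 14 without day 0 replicate 1, and at day 7 it gave 3.99 without day 7 replicate 2 and 2.24 without day 7 replicate 3. Il1b at day 7 missed the threshold without day 0 replicate 2 (adjusted p = 0.0626) or 3 (adjusted p = 0.0505), and Nfkb2 at day 14 without day 14 replicate 1 (adjusted p = 0.0733) or with normexp (adjusted p = 0.106). Il1b at day 7 also missed it without the 2 arrays marked by non-uniform spots (1.90, adjusted p = 0.0971) and with only the arrays of days 7 and 0 (adjusted p = 0.107). With scan as a fixed block, 2 changes of these 6 genes passed, those of Vav1 at day 14 (adjusted p = 0.0426) and day 28 (adjusted p = 0.044), and Rgs1, Rac2, Tnf, Il1b and Nfkb2 passed on no day.

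Most macrophage, T cell and neutrophil markers were higher at days 7 and 14, as were the inflammatory ligands and both receptors. At day 28 this held for most macrophage markers only. Of all tested probes, 17.7%, 20.1% and 17.4% were higher on days 7, 14 and 28. The mean level of 10 macrophage and monocyte markers was -1.34 to 0.82 at day 0, 2.13 to 3.36 at day 7, 2.82 to 3.00 at day 14 and 2.07 to 2.16 at day 28, with 8, 9 and 7 of the 10 higher on the graft days. That of 7 T cell markers was -1.82 to -0.32 at day 0, 0.21 to 1.12 at day 7, 0.63 to 0.77 at day 14 and -0.29 to -0.28 at day 28, with 5, 6 and 2 higher. Neutrophil markers (4 tested) lay between -4.48 and -2.61 at day 0, -1.28 and 2.33 at day 7, -0.08 and 0.08 at day 14, and -2.86 and -2.53 at day 28, and 4, 3 and 0 were higher. Day 0 replicate 1, which was the highest day 0 array for 7 of the 9 genes, was also the highest day 0 array of these 3 lists. This was not particular to leukocyte lists, since the same array was highest for the lymphatic endothelium, endothelium and fat cell lists. It was the lowest day 0 array of the smooth muscle and dendritic cell lists. In whole vein, more cells of a type and more RNA per cell cannot be told apart, and the part of these cell types in the results was not tested.

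Lymphatic endothelial markers were read beside Ccl21. The mean of the 4 tested (Prox1, Lyve1, Pdpn and Flt4) was -2.23 to -1.49 at day 0, -2.71 to -2.52 at day 7, -2.54 to -2.34 at day 14 and -2.25 to -1.59 at day 28. Days 7 and 14 lay below day 0 and day 28 overlapped it, in steps much smaller than those of Ccl21. The 4 genes did not move together. Prox1, the defining transcription factor, was well above background on 0 of 3 arrays at days 7 and 14 and on 2 of 3 at day 28, against 3 of 3 at day 0, and was called lower on each graft day (adjusted p from 7.43e-05 to 0.00119), but with normexp it did not pass on any day and its day 7 value was 0.31. Flt4, the receptor of lymphatic growth factors, was higher at day 28 than at day 0 by 1.4 ± 0.32 (adjusted p = 0.00787) and than at day 7 by 1.74 ± 0.32 (adjusted p = 0.0277). Pdpn, a membrane glycoprotein, was higher at day 14 than at day 0 by 1.58 ± 0.56 (adjusted p = 0.0472), and Lyve1 did not pass on any day (-0.53, -0.80 and -0.14). The mean of 3 endothelial markers was 0.30 to 1.12 at day 0, -1.15 to -0.30 at day 7, -0.16 to 0.035 at day 14 and 0.12 to 0.72 at day 28, with 1 of 3 lower on each graft day and 1 higher at day 28. Of 2 dendritic cell markers tested, 0 passed against day 0 on any day in limma, and 0 had an unadjusted p under 0.05. Fat cell markers (4 tested) had means of -5.21 to -3.20 over the graft arrays, against 0.42 to 1.38 at day 0. The part of these cells in the course of Ccl21 was not tested.

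**Figure D5:**
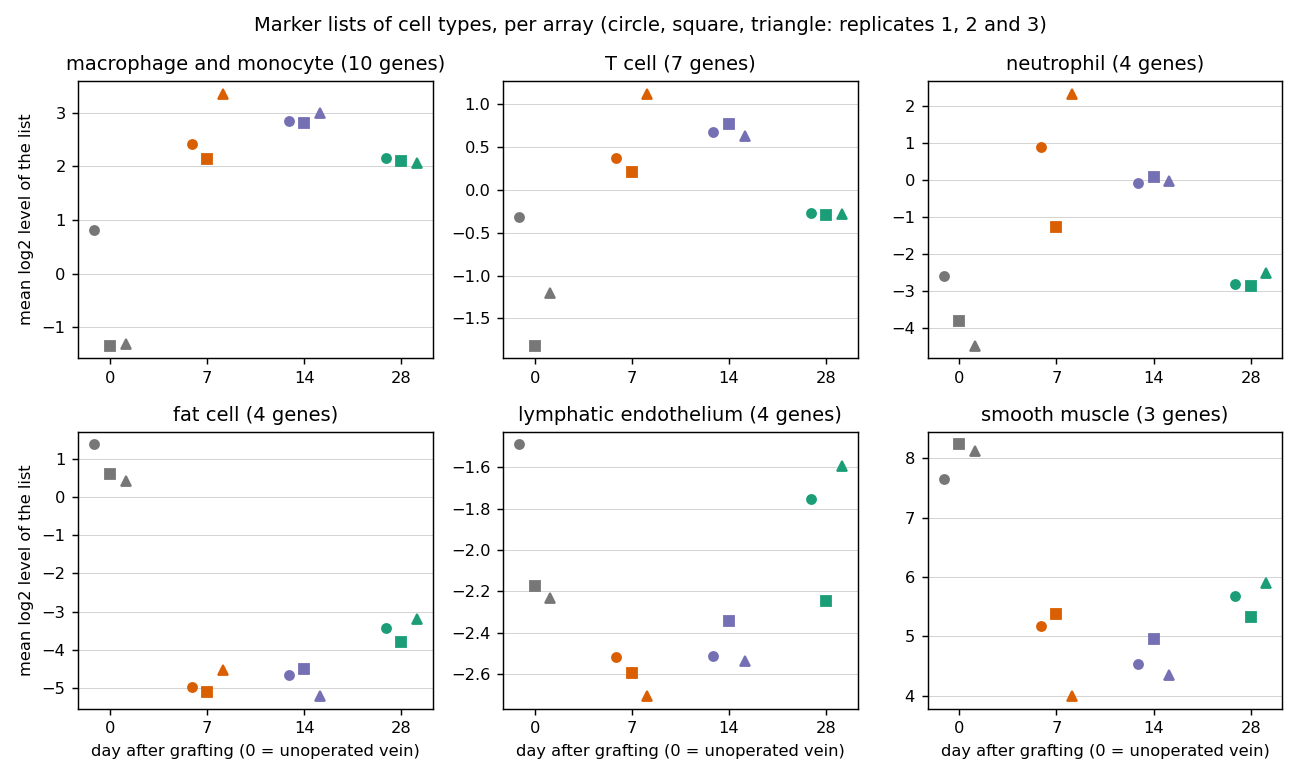
Mean log2 level of the tested genes of 6 cell type marker lists on each array, by day after grafting (circles, squares and triangles are replicates 1, 2 and 3, which pair nothing across days). The macrophage and monocyte list lies between 2.07 and 3.36 on the graft arrays and at or below 0.82 at day 0, and the lymphatic endothelium list is lowest at days 7 and 14.

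Genes whose levels ran most like those of the 9 over the 12 arrays were picked by Pearson r, as a description, since all arrays share the step between day 0 and grafts. The nearest to Ccl3 was Rgs1 (r = 0.996 over 12 arrays and 0.938 over the 9 graft arrays). C3ar1, a complement receptor of myeloid cells, ran with Ccr1 (0.995 and 0.989), and Cebpa, a myeloid transcription factor, with Ccr2 (0.992 and 0.951). Rhbdf2, needed to release TNF in macrophages, ran with Ccl2 (0.992 and 0.903), Slc7a8, an amino acid transporter, with Ccl4 (0.986 and 0.984), and Ccl17 with Ccl7 (0.976 and 0.898). Gja1, a gap junction protein, ran with Ccl20 (0.988 and 0.927), Atp1b1, a sodium pump subunit, with Ccl5 (0.956 and 0.935), and Cfap36 with Ccl21 (0.975 and 0.982). Among the 9 genes, over the graft arrays alone, r was 0.899 between Ccl3 and Ccl4, 0.878 between Ccr1 and Ccr2, 0.338 between Ccl2 and Ccl3 and -0.903 between Ccl3 and Ccl21.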

How the data were processed

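Each array held vein RNA, labelled with Cy3 along the whole transcript after removal of ribosomal RNA, per the labels' protocols. The deposited intensity values are spot signals on a linear scale that Agilent Feature Extraction 11.0.1.1 had corrected for background, per the file headers, with the version given in the submitters' processing notes. The authors also deposited a table of log2 values, a scale judged from the values, whose method of normalization is not given in the sources used here; its column medians were 7.149 to 7.153, and each column correlated best with its own array (r from 0.99828 to 0.99951).

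Control spots and spots marked as outliers were left out, spots of a probe were averaged, and the log2 intensity minus the 75th percentile of the array was used. Probes well above background on at least 3 arrays were tested, 21063 in all, of 24684. Symbols came from RefSeq accessions matched to a RefSeq gene table of assembly GRCr8, used for names and neighbours alone (14294 probes matched 1 gene). A single limma fit (limma 3.58.1, R 4.3.3) of the 4 days over all 12 arrays gave all changes, with empirical Bayes moderation (8 residual and 2.317 prior degrees of freedom). It was tested on simulated data. Python 3.11.15, NumPy 2.4.6, pandas 2.3.3 and Matplotlib 3.10.9 were used for reading and plotting.

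The alternatives were normexp, quantile normalization, no filter or a filter of 6 arrays, only the arrays compared, scan as a fixed or a random block, the authors' values, no arrays with many non-uniform spots, and each array left out in turn. Normexp used the median signal, since the column for the mean signal was not used here. Scans were told apart by scan time in the file headers. Precision is limited by 3 arrays per day.

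The genes named were the 9 genes, every other CC gene that passed against day 0, the 3 largest called changes of the signalling and inducer lists at day 14, and the genes nearest in pattern; Ccr7, Ccl25, Ccrl2, Prox1 and genes without a usable probe were added after values were seen. The genes and lists were chosen with earlier results of these data known. A few genes of these lists are not reported here, and counts and ranks leave them out. All labels carry the same replicate number, so replicates 1 to 3 are names that pair nothing. The design text speaks of independent experiments, but no label ties an array to an animal of its own. The p-values therefore cover only the spread among these arrays, part of which may be technical.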

Additional observations from a re-analysis of the deposited data

Results flagged for a closer look

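Ccl21 differed between graft days by the test of the difference itself. It was higher at day 28 than at day 14 by 5.0 ± 0.54 (limma, adjusted p = 0.00215, with no overlap of the 3 and 3 arrays), and higher at day 28 than at day 7 by 2.97 ± 0.54 (adjusted p = 0.0279, again with no overlap). Within the scan that held 2 arrays of each day, the difference between days 28 and 14 was 5.19. No scan held arrays of both days 28 and 7. The call between days 28 and 7 was lost with scan as a random block (adjusted p = 0.0776) or a fixed block (adjusted p = 0.995), and without day 7 replicate 1 or 3 or any 1 of the day 28 arrays (adjusted p from 0.0597 to 0.133).

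Ccl6 was lower at day 28 than at day 14 by the same kind of test, with a difference of -2.60 ± 0.53 (limma, adjusted p = 0.0243). The levels were -1.50, -1.51 and -1.45 at day 28, against 1.01, 1.22 and 1.11 at day 14. The call was lost without any 1 of these 6 arrays (adjusted p from 0.0647 to 0.102).

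Ackr2 was higher at day 28 than at day 14 by 2.64 ± 0.60 (limma, adjusted p = 0.0376) and than at day 7 by 2.96 ± 0.60 (adjusted p = 0.0402). Its levels were -3.44, -4.20 and -2.76 at day 28, against -6.12, -6.17 and -6.04 at day 14 and -5.85, -5.43 and -8.00 at day 7. Day 7 replicate 3, at -8.00, was not well above background, and without it the difference from day 7 was 2.17. The first call was lost without any 1 of the arrays compared and with normexp (0.72), and the second was lost without day 7 replicate 1, day 28 replicate 1 or day 28 replicate 3 and turned sign with normexp (-0.24). The second was also lost with scan as a random block (adjusted p = 0.1001) and with only the arrays compared (adjusted p = 0.1188). With scan as a fixed block neither passed (2.28 and 2.59, adjusted p = 0.187 and 0.995), nor did Ccl6 (-2.67, adjusted p = 0.118). The causes were not tested.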

How the results depend on the processing

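No paired analysis was possible because the labels give every array the same replicate number. No gene of the 9 had a second probe, so the alternative of the next brightest probe was not run.

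Against day 0, the changes of the 9 genes never changed sign. Over 27 changes, 149 of 162 values that left out 1 array and 208 of 243 values under the other alternatives kept their side of the threshold. With scan as a fixed block the genes called were 1, 2 and 1 of the 9 on days 7, 14 and 28 and 1, 3 and 3 of the other CC genes, against 9, 9 and 7 and 11, 11 and 6 without it. Of all probes, 0.261%, 4.91% and 6.47% passed with the fixed block on those days. With normexp the other CC genes called were 5 at day 14 and 3 at day 28, where 16.8% and 12.3% of all probes were. The cause was not tested. Leaving out 1 array gave 9, 8 to 9 and 5 to 8 of the 9 genes on days 7, 14 and 28. With all 12 arrays, 33.1%, 37.5% and 33.9% of all probes passed, and the shares with 1 array left out are not given.

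Between graft days, 1 gene was called for day 14 against day 7 without the 2 arrays marked by non-uniform spots, where 11.5% of all probes were (0 to 1 when 1 array was left out). For day 28 against day 14, 4 were called without those 2 arrays, where 22.8% of all probes were, and 5 with only the arrays compared, where 30.2% were. For day 28 against day 7, 0 were called with scan as a fixed or random block, where 0% and 0.546% of all probes were (0 to 1 when 1 array was left out).

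Changes of sign came mostly in values that did not pass. For day 14 against day 7, Ccl2 was 0.073 with normexp, 0.028 with quantile normalization, 0.034 with the authors' values and 0.20 without the 2 arrays (-0.33 to 0.20 when 1 array was left out), and for day 28 against day 7 it was 0.066 without the 2 arrays (-0.46 to 0.066), and for day 28 against day 14 it ran from -0.38 to 0.060 when 1 array was left out. For day 14 against day 7, Ccl4 was -0.43 with normexp (-0.12 to 0.60), Ccl5 was -0.058 with the random block and -0.047 without the 2 arrays (-0.047 to 0.10), Ccr1 ran from -0.33 to 0.88, and Ccr2 was 0.076 without the 2 arrays (-0.24 to 0.076). Ccl20 was -0.39 with normexp for day 28 against day 7. Against day 0, Ccl22 at day 28 was -0.095 with normexp, Ccl28 was 0.79 with normexp and 0.38 with the fixed block at day 7 and 0.16 with the fixed block at day 28 (-0.31 to 0.0092 when 1 array was left out), and Ackr2 at day 28 was 0.058 with the fixed block. Ccr7 at day 14 was -0.010 with normexp, -0.065 with quantile normalization, -0.19 with the fixed block, -0.048 with the authors' values and -0.28 without the 2 arrays (-0.28 to 0.23), and at day 28 it was -0.023 with normexp and -0.078 without the 2 arrays (-0.078 to 0.43). Of values that passed, 3 turned sign, all with normexp: Ccr4 at day 7 (0.23), Prox1 at day 7 (0.31) and Ackr2 for day 28 against day 7 (-0.24). The cause was not tested. Levels of probes not well above background on an array are only bounds, and 3 arrays a day limit the precision of every change.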
